A study of Mus musculus with 6 samples.

Results

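Pax6, Rax, Lhx2, Sox2, Sox8, Sox9 and Nr2e1 encode transcription factors that mark retinal progenitor cells, the dividing cells from which the neurons and Müller glia of the retina arise. These 7 genes were chosen by name, as a set of progenitor homeobox, Sox and nuclear receptor factors, from the 55487 genes of the count table, and all 7 were found in it and passed the filter on low counts. Pax6, Rax and Lhx2 are homeodomain proteins of the eye field, and a mouse embryo that lacks any of them has no or a severely reduced eye. Sox2, Sox8 and Sox9 bind DNA through an HMG box, and Sox8 and Sox9 are sister genes of the SoxE group whose expression later continues in Müller glia. Nr2e1, also called Tlx, is an orphan nuclear receptor that acts mainly as a repressor and keeps neural and retinal progenitors dividing.

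RNA was sequenced from the retinas of 6 mouse embryos of strain C57BL/6 at embryonic day 16.5, all of 1 litter, with the left and right eyes of an animal combined into 1 library. The labelled cKO group holds 3 embryos homozygous for a floxed Foxp1 allele that also carry Six3-Cre, a Cre recombinase driven by the Six3 promoter in the developing retina. The labelled control group holds 3 Foxp1 fl/fl embryos without the Cre, so both groups carry the floxed alleles and, by the labels, the recombinase sets them apart. The labelled sexes are female, male and male for cKO embryos 1, 2 and 3, and female, female and male for control embryos 1, 2 and 3. Foxp1 is a forkhead transcription factor, and the design asks how gene expression in the embryonic retina differs when it is deleted there.

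The libraries held 23707761 to 25714620 counts and detected 24522 to 25118 genes with at least 1 count. The targeted gene went against the labels. Foxp1 had 1850, 1816 and 1742 counts in the labelled cKO libraries, against 1213, 1019 and 1096 counts in the labelled control libraries. Its log2 fold change was 0.65 (SE 0.07, edgeR quasi-likelihood adjusted p = 4.63e-05), whereas the authors' deposited table gives -0.60 for the same comparison. The counts cover the whole gene and not the floxed exons alone, so they check the labels only in part. Genes of the sex chromosomes fitted the labelled sex in 4 of 6 libraries and went against it in control 2 and cKO 2. With the labelled sexes of the groups exchanged number for number they fitted in 6 of 6. The embryos of the other numbers have the same labelled sex in both groups, so this check bears on control 2 and cKO 2 only. It cannot tell an exchange of the groups from an exchange of control 2 and cKO 2 alone. Every direction below is therefore given for the libraries as labelled, as labelled cKO over labelled control. By the Foxp1 counts alone, a wrong assignment of the labels cannot be told apart from a true increase of Foxp1. The sex-linked genes are a separate check, and they went against the labels in control 2 and cKO 2. If the labels of the groups were exchanged, every direction below would be reversed.

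Across the 7 genes the labelled groups lay close together. Values are counts scaled to a library of 1000000 counts (CPM), with TMM normalization. No member passed an adjusted p of 0.05 in edgeR's quasi-likelihood test, whereas 135 of the 17275 genes tested did, which is 0.781%. At an unadjusted p under 0.05 in edgeR, 2 of the 7 passed, Sox9 and Nr2e1, beside 16.5% of all tested genes. All 7 average at least 100 CPM, and of the 2550 tested genes at that level 903 passed. DESeq2 called 1 of the 7, Sox9, beside 9.18% of the genes to which it gave an adjusted p and 399 of those 2550 genes. The fitted change was below 0 for 6 members and above 0 for Sox2, with a median log2 change of -0.03 over the 7, against 0.00 over all tested genes and -0.02 over the 2550 tested genes that average at least 100 CPM. Together the 7 genes took 0.224%, 0.219% and 0.225% of the counts in the labelled cKO libraries, against 0.229%, 0.224% and 0.231% in the labelled control libraries. In a bulk sample, a difference in the number of cells of a type and one in the RNA per cell cannot be told apart.

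**Figure D1:**
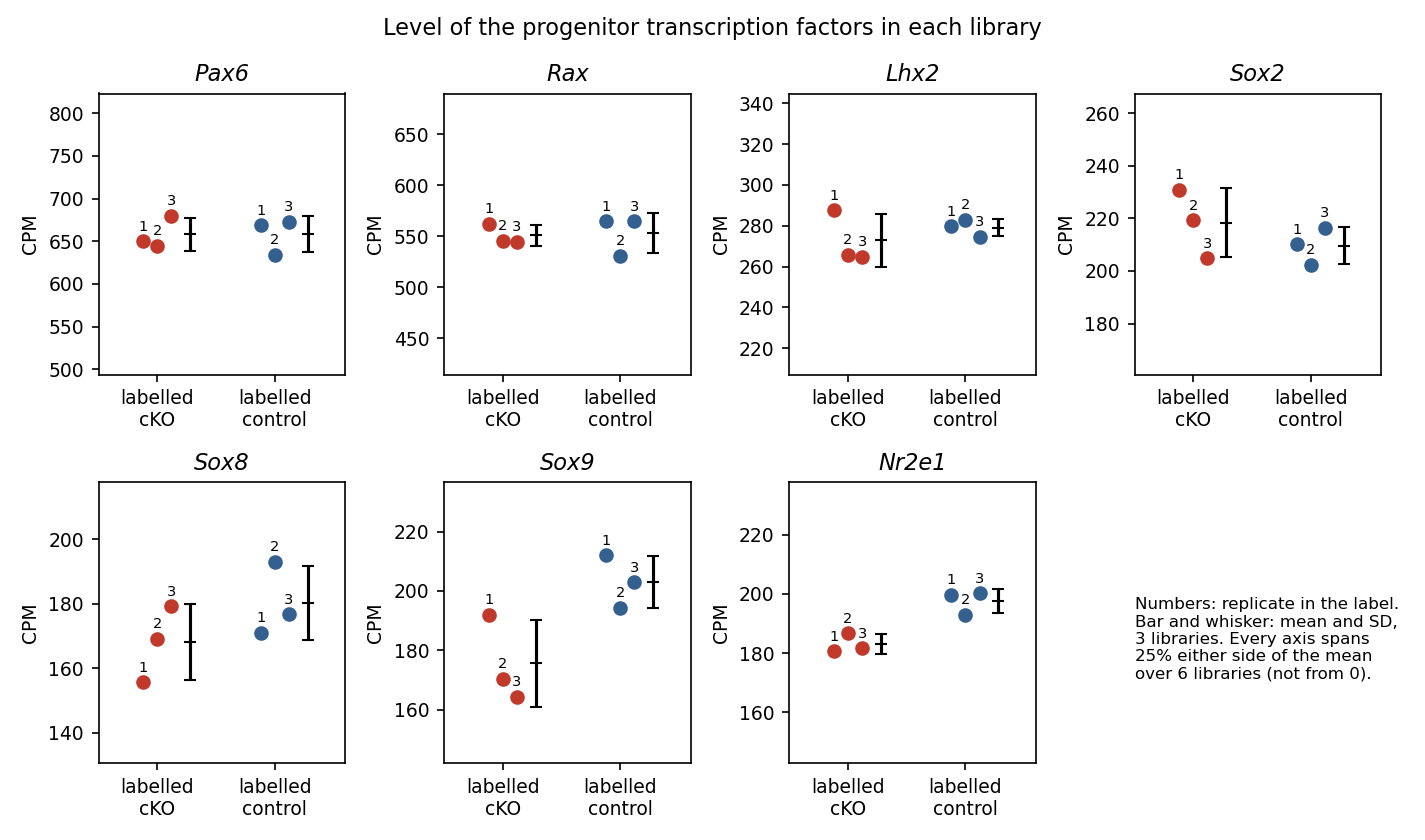
Level of each of the 7 genes in CPM, with 1 point per library and the group mean as a bar, labelled cKO left of labelled control in each panel. The points of Sox9 and Nr2e1 do not overlap between the groups and lie lower in labelled cKO, and those of the other members overlap.

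Pax6 is the paired-box and homeobox factor needed for progenitors to keep their ability to form all retinal cell classes. It lies on chr2:105668900-105697364 on the plus strand of mm10 (ENSMUSG00000027168). Its level was 650, 645 and 680 CPM in labelled cKO libraries, against 669, 634 and 673 CPM in labelled control libraries. The ranges overlapped almost completely, and the means were 658 ± 19.1 CPM in labelled cKO and 659 ± 21.2 CPM in labelled control (SD, n = 3 each). The log2 fold change was -0.00 (SE 0.05, edgeR adjusted p = 0.993), with a 95% interval of -7.13% to 7.51%. Of the 2550 genes that average at least 100 CPM, 99.3% had a larger absolute log2 change. The antisense gene Pax6os1, which overlaps the span of Pax6 without sharing annotated exon bases, averaged 8.06 ± 0.51 CPM in labelled cKO and 7.40 ± 0.05 CPM in labelled control (SD, n = 3 each), with a log2 change of 0.12 (edgeR adjusted p = 0.654).

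Rax is the homeobox factor at the start of eye field formation and stays on in dividing progenitors. It is annotated on chromosome 18 of mm10 on the minus strand (ENSMUSG00000024518), from 65928277 to 65939787. Its level was 562, 546 and 544 CPM in labelled cKO libraries, against 565, 531 and 564 CPM in labelled control libraries. Again the ranges overlapped, with a log2 fold change of -0.01 (SE 0.05, edgeR adjusted p = 0.969) and a 95% interval of -7.47% to 7.06%. Raxos1 runs on the opposite strand and shares 1604 exon bases with Rax, and whether the authors' counting used strand is not given in the sources used here. Of all runs of 50 bases in the annotated Rax transcripts, 24.7% recur in the transcripts of another gene, nearly all of them on the opposite strand in Raxos1, so the Rax count is less certain than the others. Raxos1 itself had 55, 34 and 47 counts in labelled cKO libraries, against 50, 38 and 50 counts in labelled control libraries.

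Lhx2 is a LIM-homeodomain factor needed to form the optic vesicle and, later, to keep progenitors dividing and to make Müller glia. It lies on chr2:38339281-38369733 on the plus strand of mm10 (ENSMUSG00000000247). Its level was 288, 266 and 265 CPM in labelled cKO libraries, against 280, 283 and 275 CPM in labelled control libraries. The highest library and the 2 lowest were all labelled cKO, so the groups overlapped, with a log2 fold change of -0.03 (SE 0.05, edgeR adjusted p = 0.819). The 95% interval ran from -9.28% to 5.32%. The antisense gene Gm27197, which overlaps Lhx2 without shared exon bases, was low, at 45, 61 and 36 counts in labelled cKO libraries and 30, 31 and 25 counts in labelled control libraries. Its groups did not overlap, and its log2 fold change of 0.68 (SE 0.27) did not pass the threshold (edgeR adjusted p = 0.205).

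The 3 Sox members read DNA with the same domain, and the stretches below show how alike they are and whether a read could be assigned to the wrong one. Each is 150 bases of coding sequence within the HMG box, the length of 1 read of a pair, from the GENCODE M21 annotation of mm10, written 5′ to 3′ on the coding strand. In Sox2 and Sox8, capitals mark bases that differ from Sox9. In Sox9, capitals mark bases that differ from Sox8.
Sox2: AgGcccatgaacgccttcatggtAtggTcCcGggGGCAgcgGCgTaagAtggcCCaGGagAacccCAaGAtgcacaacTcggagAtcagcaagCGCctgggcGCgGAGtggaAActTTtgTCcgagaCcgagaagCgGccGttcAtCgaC
Sox8: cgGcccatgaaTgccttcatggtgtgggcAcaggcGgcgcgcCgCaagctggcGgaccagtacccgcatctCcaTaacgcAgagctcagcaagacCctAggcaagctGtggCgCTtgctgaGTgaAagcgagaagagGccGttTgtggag
Sox9: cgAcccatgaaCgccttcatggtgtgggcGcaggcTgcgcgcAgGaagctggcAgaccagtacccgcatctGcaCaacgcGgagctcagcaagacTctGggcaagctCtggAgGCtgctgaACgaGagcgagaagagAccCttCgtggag

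The Sox2 stretch lies on chr3:34650548-34650697, the Sox8 stretch on chr17:25570110-25570222 and chr17:25569024-25569060 across an intron, and the Sox9 stretch on chr11:112782903-112783015 and chr11:112783809-112783845, also across an intron. Sox8 differed from Sox9 at 22 of 150 bases, an identity of 85.3%, and the longest identical run was 17 bases. Sox2 differed from Sox9 at 46 bases, an identity of 69.3%, with a longest identical run of 20 bases. Over the whole transcripts, no run of 50 bases of Sox2 or Sox9 was found in the transcripts of another gene. For Sox8, 8.99% of such runs were shared, all with 2810468N07Rik on the opposite strand and none with Sox9.

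Sox2 is the SoxB1 factor that keeps neural progenitors competent to divide and to make neurons. It lies on chr3:34650405-34652461 on the plus strand of mm10 (ENSMUSG00000074637). Its level was 231, 219 and 205 CPM in labelled cKO libraries, against 210, 202 and 217 CPM in labelled control libraries. The top 2 libraries were labelled cKO and the rest were mixed, so the groups overlapped. The means of 218 ± 13.0 CPM in labelled cKO and 210 ± 7.08 CPM in labelled control (SD, n = 3 each) gave a log2 fold change of 0.06 (SE 0.05, edgeR adjusted p = 0.643), with a 95% interval of -3.52% to 12.5%. Sox2 sits inside an intron of the long noncoding gene Sox2ot on the same strand, with no shared exon bases. Sox2ot averaged 21.04 ± 1.88 CPM in labelled cKO and 20.4 ± 1.16 CPM in labelled control (SD, n = 3 each), with overlapping groups.

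Sox9 is the SoxE factor of progenitors that later takes part in making Müller glia. It lies on chr11:112782224-112787760 on the plus strand of mm10 (ENSMUSG00000000567), and no annotated gene overlaps it. Its counts were 4905, 4100 and 4161 in labelled cKO libraries, against 5066, 4823 and 4816 in labelled control libraries. Scaled, these were 192, 170 and 164 CPM in labelled cKO, against 212, 194 and 203 CPM in labelled control. Every labelled cKO library lay below every labelled control library, but by little, since the highest labelled cKO value was 192.0 CPM and the lowest labelled control value 194.3 CPM. The means were 176 ± 14.5 CPM in labelled cKO and 203 ± 8.82 CPM in labelled control (SD, n = 3 each). The log2 fold change of -0.21 (SE 0.06) is a difference of -13.5%, with a 95% interval of -20.4% to -6.11%. It had an unadjusted p of 0.00138, rank 322 of 17275, and did not pass the threshold (edgeR quasi-likelihood adjusted p = 0.0739).

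The Sox9 result depended on the tool and on single libraries. Over the 17 alternatives the adjusted p ran from 0.00736 to 0.714 and the log2 change from -0.28 to -0.16, below 0 in every one. It passed the threshold in 4 of them, namely with DESeq2 (adjusted p = 0.016), without the low-count filter in edgeR (0.007), with the replicate number as a block in edgeR (0.009), and in edgeR without cKO 1 (log2 change -0.28, 0.0214). Without control 2 and cKO 2, the libraries whose sex-linked genes went against the label, the log2 change was -0.22 (edgeR adjusted p = 0.714). The authors' deposited table gives Sox9 a log2 fold change of 0.25 with an adjusted p of 0.00289, a change of like size and opposite sign.

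Sox8 is the SoxE relative of Sox9, and lies on chr17:25565892-25570686 on the minus strand of mm10 (ENSMUSG00000024176). Its level was 156, 169 and 179 CPM in labelled cKO libraries, against 171, 193 and 177 CPM in labelled control libraries. The 2 lowest libraries were labelled cKO and the highest was a labelled control, and the groups overlapped. The log2 fold change was -0.10 (SE 0.06, edgeR adjusted p = 0.401), with a 95% interval of -14.2% to 1.28%. Its antisense neighbour 2810468N07Rik, with 329 shared exon bases, averaged 10.2 ± 0.82 CPM in labelled cKO and 11.005 ± 0.592 CPM in labelled control (SD, n = 3 each), with overlapping groups.

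Sox8 and Sox9 did not move together from library to library. Within a library, the level per length of Sox9 over that of Sox8 was 0.929, 0.760 and 0.691 in labelled cKO, against 0.934, 0.759 and 0.867 in labelled control, so this ratio overlapped between the groups. Sox9 over Sox2 was 0.413, 0.387 and 0.399 in labelled cKO, against 0.502, 0.478 and 0.466 in labelled control, and did not overlap. The root mean square difference of centred log2 levels over the 6 libraries was 0.163 for Sox8 and Sox9, the largest of all pairs of members, and 0.034 for Pax6 and Rax, the smallest. Such a difference also grows with the spread of each gene itself. That spread was largest for Sox9 (0.131) and Sox8 (0.094), and smallest for Rax (0.034) and Pax6 (0.036).

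Nr2e1 lies on chr10:42561963-42583632 on the minus strand of mm10 (ENSMUSG00000019803). Its level was 181, 187 and 182 CPM in labelled cKO libraries, against 200, 193 and 200 CPM in labelled control libraries. The groups did not overlap, and the libraries within each were close, at 183 ± 3.33 CPM in labelled cKO and 198 ± 4.05 CPM in labelled control (SD, n = 3 each). The log2 fold change was -0.11 (SE 0.05), a difference of -7.44% with a 95% interval of -13.6% to -0.816%. The unadjusted p was 0.0300, rank 2137 of 17275, and the adjusted p in edgeR was 0.242. Over the 17 alternatives the change stayed between -0.14 and -0.10 and the adjusted p between 0.107 and 0.714. The authors' deposited table gives 0.12 with an adjusted p of 0.143.

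Non-overlap is common in these libraries and was not particular to Sox9 and Nr2e1. Of all tested genes, 20.1% had groups that did not overlap, and 9.3% had every labelled cKO library below every labelled control library. Among genes that average at least 100 CPM these shares were 33.3% and 17.6%. Of the 7 members, 2 did not overlap, both lower in labelled cKO. In the authors' deposited table, 8.97% of the genes with an adjusted p passed 0.05, and of the members Sox9 did. For every member but Pax6, the sign of the log2 change in that table was opposite to that from the counts as labelled.

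**Figure D2:**
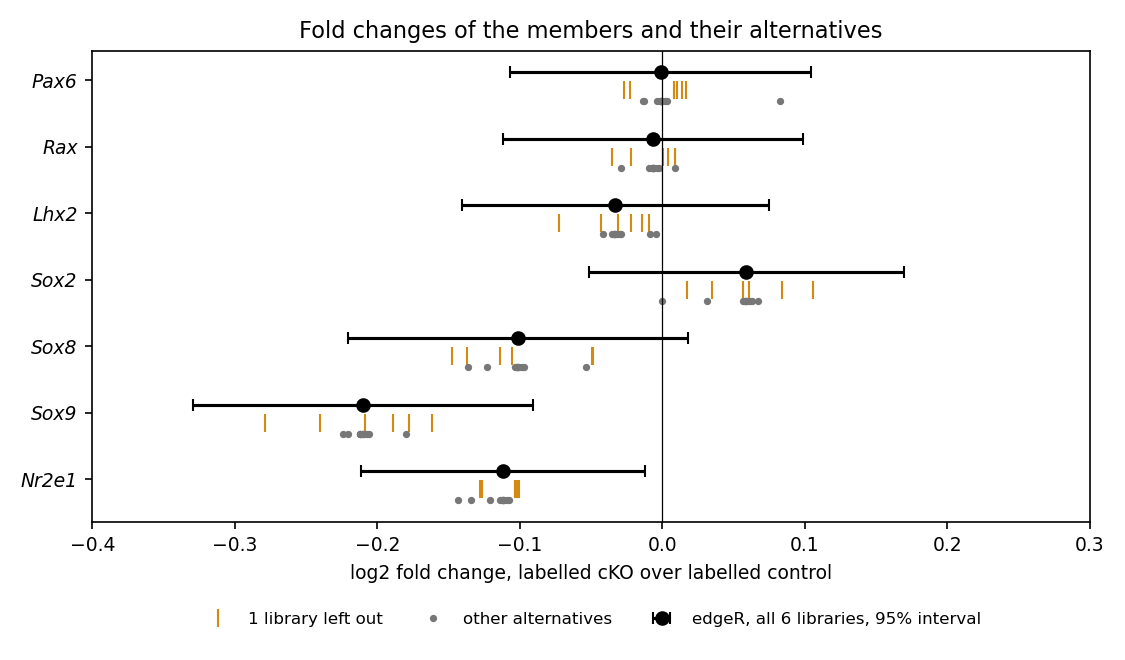
Log2 fold change of each member, labelled cKO over labelled control, from the edgeR fit with its 95% interval. Values from the alternatives are drawn beside it. The intervals of Sox9 and Nr2e1 lie below 0, and those of the other members span 0.

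Compared per length, all 7 genes were among the more highly expressed genes of the retina. Levels per length were taken as CPM per 1000 bases of summed exons (RPKM), averaged over the 6 libraries. Sox2 was highest with 104 RPKM, then Rax with 94.4 RPKM, Lhx2 with 62.8 RPKM, Pax6 with 56.3 RPKM, Sox8 with 55.9 RPKM, Nr2e1 with 51.3 RPKM and Sox9 with 45.8 RPKM. Sox2 ranked 340 and Sox9 932 among the 17275 tested genes. Neighbours from Sox2 down to Pax6 did not overlap over the 6 libraries. Pax6 and Sox8 could not be ordered beyond their spread, since Sox8 was higher in control 2, and the ranges of Sox8 and Nr2e1 and of Nr2e1 and Sox9 overlapped, although within each library the order held in 6 of 6.

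The order at the top depends on which length a gene is given. Summed over all annotated isoforms, the exons of Pax6 cover 11694 bases and those of Rax 5846 bases, whereas the longest protein-coding transcript has 4427 bases for Pax6 and 2323 bases for Rax. With the transcript lengths, a choice made after these values were seen, Rax was highest with 238 RPKM, then Pax6 with 149 RPKM, Sox2 with 104 RPKM, Lhx2 with 97.2 RPKM, Sox8 with 58.1 RPKM, Nr2e1 with 57.9 RPKM and Sox9 with 45.8 RPKM. Sox8, Nr2e1 and Sox9 were the 3 lowest by both lengths.

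**Figure D3:**
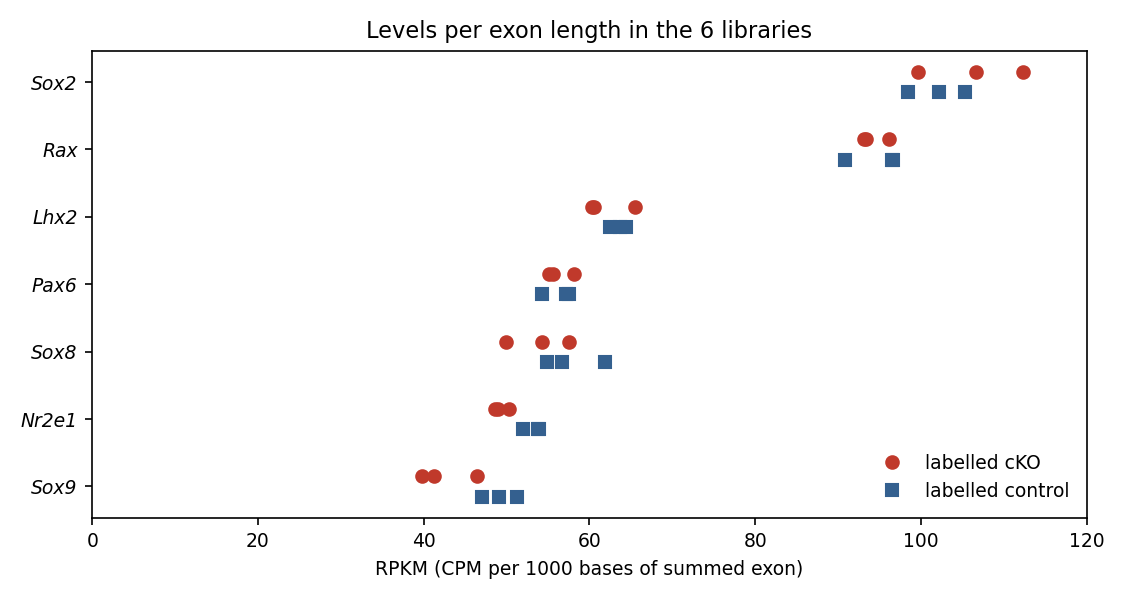
Level per length of the 7 members in RPKM over summed exons, 1 point per library, with members ordered by their mean over the 6 libraries. Sox2 and Rax stand above the others, and Pax6 and Sox8 overlap.

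Each member's pattern over the 6 libraries was compared with those of 10219 protein-coding genes that average at least 10 CPM, by the root mean square difference of their centred log2 levels. For Pax6 the most alike were Cep120, a centrosome protein, at 0.012 and Sun1, a nuclear envelope protein, at 0.014. For Rax they were Trabd at 0.012 and Ogfrl1 at 0.014, and for Lhx2 they were Faap100 and Cbx7, a Polycomb subunit, both at 0.009. The flat genes thus had other flat genes beside them. For Sox2 the most alike were BC005624 at 0.014 and Stambp at 0.017, for Sox8 Arpc5l at 0.029 and Dlg2 at 0.031, and for Nr2e1 Ankrd13c at 0.010 and Ptprk at 0.017. Sox9 was nearest to Sema4b, a semaphorin, at 0.026 and Foxo6, a forkhead factor, at 0.029, against a spread of Sox9 itself of 0.131.

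Other genes of the progenitor state gave the setting. Of 16 such genes, all were tested, 7 lay above 0 and 9 below 0, none passed the threshold in edgeR, and the median log2 change was -0.01. At an unadjusted p under 0.05 in edgeR, 5 of the 16 passed, beside 16.5% of all tested genes. Of the 2550 tested genes that average at least 100 CPM, a level most but not all of the 16 reach, 903 passed. DESeq2 called 1 of the 16, Six3, beside 9.18% of the genes with an adjusted p. Ccnd1, the cyclin of dividing progenitors, averaged 4467 ± 58.3 CPM in labelled cKO and 4504 ± 110 CPM in labelled control (SD, n = 3 each), a log2 change of -0.01 (edgeR adjusted p = 0.935). Fgf15, a growth factor gene of progenitors, averaged 903 ± 12.6 CPM in labelled cKO and 848 ± 56.7 CPM in labelled control, a log2 change of 0.09 (edgeR adjusted p = 0.428). Hes5, an effector of Notch signalling, averaged 398 ± 8.39 CPM in labelled cKO and 370 ± 12.4 CPM in labelled control, a log2 change of 0.10 (edgeR adjusted p = 0.311). Those 3 were named for their high level per length and not for how they moved.

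The summed level of the 16 genes ran from 8753 to 9209 CPM in labelled cKO libraries and from 9044 to 9179 CPM in labelled control libraries. The receptor gene Notch1, singled out after its values were seen, had 731, 655 and 661 CPM in labelled cKO, against 956, 843 and 718 CPM in labelled control. The groups overlapped, with a log2 change of -0.30 (edgeR adjusted p = 0.194). Hes1, also singled out after its values were seen, had 167, 159 and 147 CPM in labelled cKO, against 137, 141 and 145 CPM in labelled control. Its groups did not overlap, with a log2 change of 0.16 (edgeR adjusted p = 0.111).

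Relatives and partners of the members did not pass the threshold either. Of 16 other Sox genes, 12 were tested, 4 above 0 and 8 below 0, with a median log2 change of -0.05. Of the SoxC genes, which act in newborn neurons, Sox4 averaged 1165 CPM in labelled cKO and 1126 CPM in labelled control, and Sox11 averaged 1054 CPM in labelled cKO and 1102 CPM in labelled control. Sox12, also of that group, averaged 312 CPM in labelled cKO and 321 CPM in labelled control. Of 21 Pax, LIM-homeobox and LIM-cofactor genes, 14 were tested, 4 above 0 and 10 below 0, with a median of -0.03. Ldb1, the cofactor that joins LIM-homeodomain proteins such as Lhx2 into complexes, averaged 358 CPM in labelled cKO and 361 CPM in labelled control. The LIM-homeobox genes of ganglion cells, Isl1 and Isl2, had log2 changes of 0.06 and -0.07 (edgeR adjusted p = 0.614 for Isl1 and 0.610 for Isl2). Of 12 nuclear receptor relatives and partners of Nr2e1, all were tested, 5 above 0 and 7 below 0, with a median of -0.03. Hdac1, Hdac2 and Kdm1a encode chromatin enzymes that work with Nr2e1 as corepressors. Hdac1 averaged 131.2 CPM in labelled cKO and 130.7 CPM in labelled control. Hdac2 averaged 189 CPM in labelled cKO and 180 CPM in labelled control, and Kdm1a averaged 204 CPM in labelled cKO and 195 CPM in labelled control. In edgeR, 0 genes of these 3 lists passed the adjusted threshold and DESeq2 called 0 of them. At an unadjusted p under 0.05 in edgeR the counts were 3 of the Sox list, 0 of the Pax and LIM list and 1 of the nuclear receptor list, beside 16.5% of all tested genes.

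Among 12 genes reported as targets of the members, 11 were tested and 1 passed the threshold. Atoh7, the proneural factor that Pax6 activates and that prepares progenitors to become ganglion cells, had 545, 551 and 504 CPM in labelled cKO libraries, against 437, 407 and 459 CPM in labelled control libraries. Each labelled cKO library lay above each labelled control library, with a log2 change of 0.30 (edgeR adjusted p = 0.018). The higher direction was called for 0.295% of all tested genes. The call held in 12 of the 17 alternatives. In edgeR it was lost without the robust fit (adjusted p = 0.114), with the trend over exon length removed (0.0594), without control 2 (0.144), without cKO 2 (0.229) and without both (log2 change 0.23, 0.714). The authors' deposited table gives Atoh7 -0.27 with an adjusted p of 4.54e-04. Of the other target genes 6 lay above 0 and 4 below 0, and the median of the 11 was 0.02. The 3 collagen genes of the list that were tested, which Sox9 activates in cartilage, are given together, having been singled out after their values were seen, and none passed. Col9a1 had 227, 246 and 232 CPM in labelled cKO, against 202, 217 and 205 CPM in labelled control, without overlap, with a log2 change of 0.18 (edgeR adjusted p = 0.089). Col2a1 averaged 160.2 ± 11.1 CPM in labelled cKO and 159.3 ± 17.8 CPM in labelled control (SD, n = 3 each), a log2 change of 0.01 (edgeR adjusted p = 0.974). Col11a1 averaged 11.2 ± 0.943 CPM in labelled cKO and 12.6 ± 1.26 CPM in labelled control, a log2 change of -0.16 (edgeR adjusted p = 0.474).

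**Figure D4:**
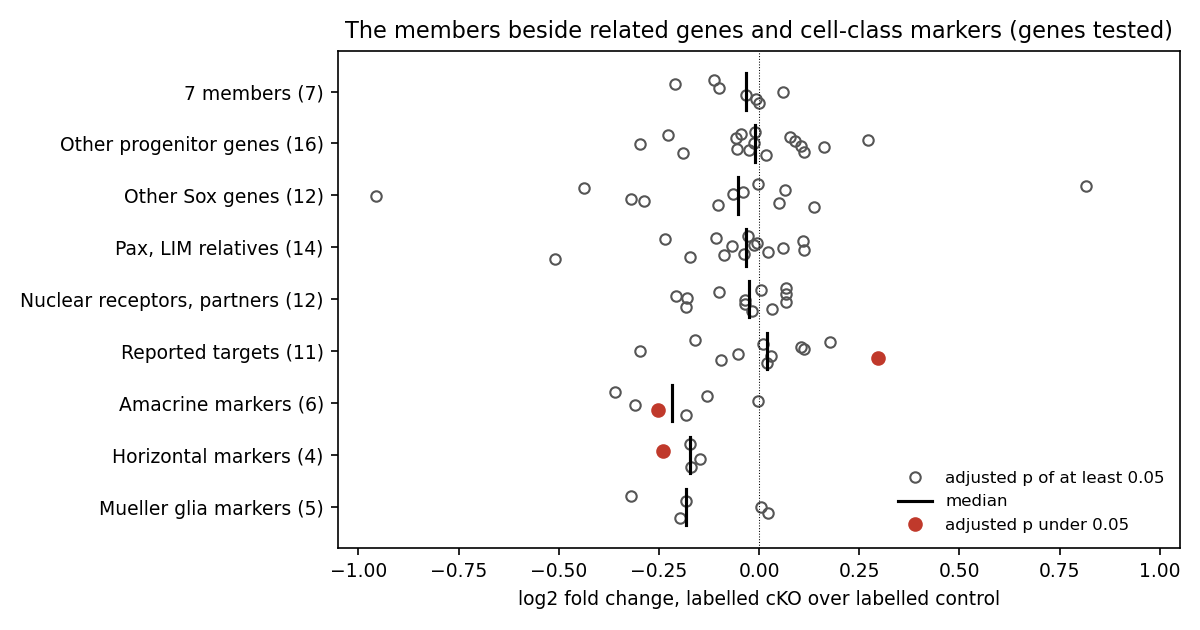
Log2 fold change, labelled cKO over labelled control, of each tested gene in the lists the plot names, 1 point per gene, with the list median as a bar. The progenitor, Sox, Pax and LIM, nuclear receptor and reported target lists centre near 0, while the amacrine and horizontal cell markers lie below 0 or at it. The median of the Müller glia markers is also below 0, at -0.18, with 2 genes above 0 and 3 below 0.

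Markers of other cells moved between the labelled groups, and their part in the values of the members was not tested. Pax6 and Sox2 stay on in amacrine cells and Pax6 also in ganglion and horizontal cells, so these genes do not belong to progenitors alone. The summed amacrine markers ran from 328 to 343 CPM in labelled cKO and from 374 to 401 CPM in labelled control, without overlap. Of those 6 genes all lay below 0 and 1 passed the threshold, Tfap2b, an amacrine factor, with 179 ± 1.08 CPM in labelled cKO and 213 ± 15.5 CPM in labelled control (SD, n = 3 each), a log2 change of -0.25 (edgeR adjusted p = 0.033). The lower direction was called for 0.486% of all tested genes. The horizontal cell markers summed to 220 to 238 CPM in labelled cKO and 245 to 286 CPM in labelled control. All 4 lay below 0 and 1 passed, Prox1, a horizontal cell factor, with 93.1 ± 3.12 CPM in labelled cKO and 110 ± 1.37 CPM in labelled control, a log2 change of -0.24 (edgeR adjusted p = 0.017). Over the 17 alternatives Tfap2b passed in 10 and Prox1 in 11, each with the same sign in all 17. Both were lost in edgeR without the robust fit (adjusted p = 0.121 for Tfap2b and 0.060 for Prox1), with the length trend removed (0.053 and 0.0538), without control 2 (0.172 and 0.112), without cKO 2 (0.272 and 0.201), without cKO 3 (0.118 and 0.099) and without control 2 and cKO 2 together (0.714 for each). The Tfap2b call was also lost without control 1 (0.0756). The authors' deposited table has 0.25 for Tfap2b and 0.24 for Prox1.

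The ganglion cell markers summed to 1232 to 1331 CPM in labelled cKO and 1212 to 1249 CPM in labelled control, with 4 of 6 genes above 0, a median log2 change of 0.06 and none past the edgeR threshold. Sncg, Nefl and Pou4f1 had log2 changes of 0.14, 0.08 and -0.12. Photoreceptor precursor markers ran from 644 to 688 CPM in labelled cKO and from 673 to 697 CPM in labelled control. There 4 of 5 genes lay below 0, with a median of -0.02, and Otx2, Crx and Prdm1 had log2 changes of 0.03, -0.01 and -0.05.

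Sox8 and Sox9 are also genes of Müller glia. The glial markers summed to 1001 to 1043 CPM in labelled cKO and 983 to 1069 CPM in labelled control, with overlap. Glul, the glutamine synthetase gene, makes up most of that sum and averaged 716 CPM in labelled cKO and 704 CPM in labelled control, a log2 change of 0.02 (edgeR adjusted p = 0.882). Of the 5 markers tested 2 lay above 0 and 3 below 0, with a median log2 change of -0.18, and at an unadjusted p under 0.05 in edgeR 2 passed. No marker passed the adjusted threshold in edgeR, and DESeq2 called 1. Apoe, which is also a microglial gene, averaged 52.6 CPM in labelled cKO and 59.7 CPM in labelled control, without overlap (log2 change -0.18, edgeR adjusted p = 0.087). Car2, a carbonic anhydrase gene, averaged 49.5 CPM in labelled cKO and 61.8 CPM in labelled control, with overlap (log2 change -0.32, edgeR adjusted p = 0.267). Whether these markers came from glia at all at embryonic day 16.5 was not tested, and neither was a part of glial cells in the Sox9 values.

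Outside the retina Sox9 marks cartilage and astrocytes and Sox10 neural crest. Cartilage markers summed to 385 to 405 CPM in labelled cKO and 350 to 381 CPM in labelled control. Col9a1 and Col2a1, given above, make up nearly all of that sum. Of the 3 cartilage genes tested 2 lay above 0 and 1 below 0, with a median of 0.01, none passed in edgeR and DESeq2 called 1. Matn1 had 0 counts in all libraries. Optic nerve astrocyte markers were low, at 6.90 to 12.8 CPM in labelled cKO and 11.1 to 14.02 CPM in labelled control, with 2 of 3 tested genes above 0, and Sox10 averaged 0.658 CPM in labelled cKO and 1.29 CPM in labelled control. The part of these cells was not tested.

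Markers of tissue next to the retina varied between libraries. The lens, pigment epithelium, ciliary margin and mesenchyme sums overlapped between the labelled groups, and the highest lens sum was that of control 3. Lens markers, mostly crystallins, ran from 17.8 to 244 CPM in labelled cKO and from 59.6 to 891 CPM in labelled control, with all 10 tested genes below 0, a median log2 change of -1.85 and none past the threshold in edgeR, at an unadjusted p under 0.05 or in DESeq2. Cryaa averaged 43.7 CPM in labelled cKO and 170 CPM in labelled control, and Crybb1 and Cryba1 had log2 changes of -1.83 and -2.08. Pax6 and Sox2 are also lens genes, and the part of lens cells in their values was not tested. Pigment epithelium markers ran from 31.4 to 95.8 CPM in labelled cKO and from 58.1 to 97.6 CPM in labelled control. All 7 pigment epithelium genes tested lay below 0, with a median log2 change of -0.325, and none passed the threshold in edgeR. Ciliary margin markers, of the rim where progenitors persist longest, ran from 27.9 to 45.3 CPM in labelled cKO and from 36.2 to 46.8 CPM in labelled control. Mesenchyme markers ran from 76.7 to 151 CPM in labelled cKO and from 39.2 to 91.9 CPM in labelled control. Endothelial markers summed to 297 to 306 CPM in labelled cKO and 328 to 353 CPM in labelled control, without overlap, and most of the sum is Kdr, with 286 CPM in labelled cKO and 322 CPM in labelled control (log2 change -0.17, edgeR adjusted p = 0.0911). Of the 4 endothelial genes tested 2 lay above 0 and 2 below 0, with a median of -0.05 and none past the edgeR threshold.

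Microglial markers were low and overlapped, at 15.01 to 17.9 CPM in labelled cKO and 16.8 to 21.03 CPM in labelled control. All 5 microglial genes lay below 0, with a median log2 change of -0.30, and none passed the threshold in edgeR. Erythroid markers ran from 109 to 178 CPM in labelled cKO and from 73.4 to 145 CPM in labelled control, with overlap. All 5 erythroid genes lay above 0, with a median log2 change of 0.38, and none passed the threshold in edgeR. Muscle markers ran from 16.5 to 26.1 CPM in labelled cKO and from 26.9 to 58.3 CPM in labelled control, without overlap. Schwann cell and neural crest markers stayed between 5.17 and 5.95 CPM in labelled cKO and between 4.51 and 7.25 CPM in labelled control. The highest library of a member was at most 1.29 times its lowest, the value of Sox9.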

How the data were processed

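RNA was measured in 6 mouse retina samples, 3 labelled cKO and 3 labelled control. Per the labels' protocols, libraries were made with a directional kit after depletion of ribosomal RNA and sequenced as pairs of 150-base reads. The submitters' processing notes name DESeq2 1.32.0, featureCounts 1.5.1, STAR 2.7.6a and cutadapt 2.8 with mm10, without their settings. The authors deposited raw read counts per gene for each library. The authors' deposited table of the comparison holds, per the file headers, a mean normalized count (signal), a test statistic (score), p-values and a log2 fold change with an error. It lists 21080 genes, 13487 of them without an adjusted p-value.

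Samples were matched to columns by the sample descriptions. Replicates are separate animals. The members and all lists were chosen with earlier results of these data known. Symbols, strands and exon lengths came from the table and GENCODE M21, which held 55227 of the 55487 genes. Counts were tested in R 4.3.3 with edgeR 4.0.16 (TMM, filterByExpr, robust quasi-likelihood fit, Benjamini-Hochberg adjustment over all 17275 tested genes, threshold 0.05), and the script was tested on simulated data. The biological coefficient of variation was 8.37%. Chi-square values per degree of freedom between libraries of a group ran from 7.39 to 12.5 and gave no sign of a library deposited more than once. Libraries of different groups were not compared in this way. Alternatives were RLE and upper quartile scaling, no filter, a filter of 1 CPM in 3 libraries, DESeq2 1.42.0, limma-voom (limma 3.58.1), no robust fit, labelled sex as a covariate, a replicate block, removal of the trend over exon length, leaving out control 2 and cKO 2, and leaving out each library. The rule for named genes selects from each list the genes past the threshold, or else the 3 with the highest mean RPKM, and for each member the 2 genes most alike in pattern. For most markers of tissue outside the retina the text prints sums and counts and not every gene so selected. Six3 and Sfrp2 are named because they make up small counts, and other genes outside the rule are said to have been singled out after their values were seen.

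In windows from 250 bases before to 50 bases after the start, from RefSeq on GRCm38.p6, the forkhead motif TGTTTAC, the Sox motif AACAAT and the homeodomain motif TAATTA were searched on both strands. No motif contains another. Of 32851 windows, 3.65% hold the forkhead, 10.7% the Sox and 5.29% the homeodomain motif. None was found in the 7 windows of Pax6, Lhx2, Sox2, Sox8 and Nr2e1. Rax and Sox9 were not analysed here.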

Additional observations from a re-analysis of the deposited data

How the results depend on the processing

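The number of genes past the threshold moved most with the processing, from 135. It was 742 without the low-count filter, 83 with a filter of 1 CPM in 3 libraries, 561 with DESeq2, 10 without the robust fit, 38 with the trend over exon length removed and 9 without control 2 and cKO 2, and it ran from 19 to 778 with 1 library left out (21 without control 2, 778 without control 3, 361 without cKO 1, 19 without cKO 2). Upper quartile scaling, RLE scaling, limma-voom and labelled sex as a covariate left it between 93 and 126. That labelled sex went against the sex-linked genes in control 2 and cKO 2. The deviations of same-numbered samples from their group means correlated at 0.085, -0.052 and 0.199 over 17275 genes. For cKO 1 and cKO 3 the same-numbered control correlated best, whereas cKO 2 correlated best with control 1 (0.172). Whether the numbers mark a pairing was not tested. With the replicate number as a block, 1065 genes passed, 1 of them a member (Sox9, log2 change -0.21) and 2 of them other progenitor genes (Notch1 and Six3).

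The count of members past the threshold, 0, became 1 (Sox9) under the block, without the filter and with DESeq2 (log2 change -0.21 in each), and ran from 0 to 1 with 1 library left out, where the Sox9 change ran from -0.28 to -0.16. The count of other progenitor genes, 0, became 3 without the filter (Notch1, Sfrp2 and Six3) and 1 with DESeq2, and ran from 0 to 1 with 1 library left out. Changes near 0 switched sign. That of Pax6 was 0.0033 with upper quartile scaling, 0.0020 with the stricter filter, 0.082 with the length trend removed, and ran from -0.027 to 0.016 with 1 library left out. That of Rax was 0.0087 and that of Sox2 -0.000414 with the length trend removed, and that of Rax ran from -0.035 to 0.0092 with 1 library left out. Lhx2, Sox8, Sox9 and Nr2e1 stayed below 0 under all 17 alternatives run. The causes were not tested. With 3 libraries per group, differences of a few percent lay within the intervals and were not detectable.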
